A study of Homo sapiens with 18 samples.

Results

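The transcripts of cytosolic and mitochondrial chaperones and of their partners were followed in the MSTO-211H line under piroxicam, cisplatin or the combination. The line is established and derives from a human malignant mesothelioma. Piroxicam is a cyclooxygenase inhibitor of the anti-inflammatory class, and cisplatin cross-links DNA. The RNA was hybridised to 18 HGU133A arrays, on which 1 or more probe sets, each a group of short probes, report on a gene. The groups were cells with both drugs (P/C), with 760 µM piroxicam alone (P), with 4.5 µg/mL cisplatin alone (C) and without drug (untreated), taken after 8 h or 24 h of treatment. At 8 h there were 2 arrays in each group. At 24 h there were 2 arrays for P/C, 3 for P, 3 for C and 2 for untreated cells.

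A probe set was counted here when its only gene symbol in the platform annotation names an HSP70, HSP110, HSP90 or small heat shock protein (HSPA, HSPH, HSP90A and HSPB symbols), HSPD1 or HSPE1, a DNAJ protein of class A, B or C, a subunit of the chaperonin CCT, a BAG protein, or HSF1. The known chaperones of the endoplasmic reticulum HSPA5, HSP90B1, DNAJB9 and DNAJC3 were left out, as were HSPBP1 and HSPBAP1. By this rule 103 of the 22283 probe sets were members, for 64 of the 11963 genes that have a probe set with 1 symbol. The rule goes by symbols, so other genes whose proteins belong to the endoplasmic reticulum were counted too, HSPA13, DNAJC10, DNAJB12 and DNAJB14 among them. Another 12 probe sets carry a second symbol beside a matching one. HSPA1A, HSPA1B, HSPA8 and TCP1, the main inducible and constitutive HSP70 genes and a subunit of CCT, are on the array only through such probe sets, and no value is given for them.

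Chaperones bind unfolded or partly folded proteins and keep them from aggregating. HSP70 proteins do so in a cycle of ATP binding and hydrolysis: DNAJ proteins deliver the client and start the hydrolysis, and HSP110 and BAG proteins release the ADP so that the client can leave. HSP90 takes over clients such as kinases and steroid receptors at a later step, CCT folds actin and tubulin in a closed chamber, and in mitochondria HSPA9 draws proteins in and the HSPD1 barrel with its HSPE1 lid folds them. Much of the system is transcribed at a basal rate in growing cells and is raised by the factor HSF1, which binds heat shock elements, when proteins unfold.

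The deposited values are log2 signals made with GCRMA, and a difference of 1 is a 2-fold change in signal. A filter with the thresholds of the study's methods, a signal of 100 (log2 6.64) on 25% of the arrays or more and an IQR of 0.25 or more, was applied anew to these 18 arrays. It kept 3057 probe sets, which are not the set of probe sets the study retained. It kept 41 of the 103 members (39.8%, against 13.8% of all probe sets except controls), which stand for 27 genes. Of the other 62, 52 were too dim, and 10 were bright but nearly constant, among them both probe sets of HSPD1 and those of CCT3, CCT4 and CCT7. A total of 35 members stayed below log2 4 on every array, including all those of HSPA6, HSPA2, HSPA1L and BAG4. A probe set that passes because 1 group is bright had to differ between groups, so counts over the 41 are descriptions and are read beside the share over all 3057. limma was fitted with a mean for each of the 8 groups, and a call needed both an adjusted p no higher than 0.05 and a log2 fold change of 1 or more in size. Members that failed the filter were read from the same fit of all 22215 probe sets except controls, where they are adjusted over more tests.

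The arrays had medians of 2.72 to 2.83 and 15.0% to 16.8% of probe sets at a signal of 100 or more. The P/C arrays at 24 h differed most within a group, with 11.6% of the 3057 probe sets at least 1 apart on the log2 scale, followed by P/C at 8 h with 9.39%. Array 1 of C at 24 h lay that far from the other 2 C arrays in 6.84%, and the other arrays did so in 0.687% to 3.53%. Transcripts that mark leukocytes or red cells (4 of 4 measured) and epithelium (3 of 3) were below 100 on every array. Of 12 mesothelial and mesothelioma markers KRT8, KRT18 and VIM were bright, while 9, CALB2, MSLN and WT1 among them, were below 100 on every array. The untreated arrays serve in the comparisons of P/C, P and C alike, so these are not independent. In RNA of whole cultures a loss of some cells and less RNA in each cell cannot be told apart.

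The comparison of P with untreated cells at 24 h asks which chaperone transcripts change with piroxicam alone. Of the 41 members 9 fell and none rose (22.0%). Over all 3057 probe sets 14.6% were called, 11.4% as lower. The 9 stand for 7 genes, DNAJA1, DNAJC9, HSPA14, HSPA9, BAG5, HSPE1 and HSPH1. With no fold limit 16 members were lower and 1 was higher at an adjusted p of at most 0.05, against 22.4% lower and 5.95% higher over all. The median log2 fold change was −0.58 over the 41 members and −0.22 over the 3057, and 29 of the 41 values (70.7%) were negative, against 62.7%. In the fit of all probe sets 11 of the 103 members fell (10.7%), against 2.67% called lower in the background, the added gene being DNAJB1. The summed signal of the 12 mesothelial markers, most of it from VIM and KRT18, was 7150 to 7580 with P, against 8380 to 8950 in untreated cells, and that of 7 stromal markers was 102 to 120 with P, against 111 to 305. The part of these shifts in the result was not tested.

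Transcripts of the DNAJ proteins DNAJA1 and DNAJB1, cytosolic partners of HSP70, both fell with P. DNAJA2, another member of class A, was not called, at 0.22 (adjusted p = 0.752 in the fit of all probe sets). DNAJA1 (probe set 200880_at) read 5.89, 6.68 and 6.89 on the P arrays, against 8.62 and 8.99 on the untreated arrays. Every P array lay more than 1 log2 unit below both untreated arrays. The log2 fold change was −2.31 (SE 0.27, adjusted p = 9.92e-05, limma), a signal of 0.201 of that in untreated cells. Its brighter probe set 200881_s_at read 9.28, 9.29 and 9.05 with P, against 10.44 and 10.50 without drug, a smaller fall of 1.26 on the log2 scale (SE 0.20, adjusted p = 0.000791).

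DNAJB1, the class B partner that serves HSP70 in stress and in disaggregation, was dim and failed the filter. Its probe set 200666_s_at read 3.99, 3.32 and 4.06 in P cells, against 5.43 and 5.78 in untreated cells. The other, 200664_s_at, read 4.28, 4.04 and 3.78 with P, against 5.68 and 5.71 in untreated cells. Both probe sets separated the groups with no overlap. In the fit of all probe sets the log2 fold changes were −1.81 (SE 0.35, adjusted p = 0.00897) and −1.66 (SE 0.34, adjusted p = 0.0118). Without array 2 of untreated cells the adjusted p was 0.110 and 0.107, and without array 1 it was 0.0667 for 200664_s_at.

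The promoters are shown for DNAJA1 and DNAJB1, which fell, beside those of HSP90AA1, which was lower by less than the fold limit, and of HSP90AB1 and HSPD1, which were not called. All 5 are members that hold a match to the heat shock element, and the choice was made after the values were seen. Capitals mark every match of at least 2 units, GAANNTTC or TTCNNGAA, each of which reads the same on both strands. Each window runs 5′ to 3′ on the gene's own strand, with 250 bases before the start site and 50 after it, from RefSeq on GRCh38.p14.
DNAJA1, chr9:33025023-33025322, plus strand: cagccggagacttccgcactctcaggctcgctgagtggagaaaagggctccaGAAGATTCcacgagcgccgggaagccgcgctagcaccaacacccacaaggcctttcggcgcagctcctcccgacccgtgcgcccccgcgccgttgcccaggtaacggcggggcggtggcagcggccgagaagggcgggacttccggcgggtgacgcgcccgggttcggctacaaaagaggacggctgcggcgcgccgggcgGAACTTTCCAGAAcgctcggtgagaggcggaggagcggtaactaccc
DNAJB1, chr19:14518348-14518647, minus strand: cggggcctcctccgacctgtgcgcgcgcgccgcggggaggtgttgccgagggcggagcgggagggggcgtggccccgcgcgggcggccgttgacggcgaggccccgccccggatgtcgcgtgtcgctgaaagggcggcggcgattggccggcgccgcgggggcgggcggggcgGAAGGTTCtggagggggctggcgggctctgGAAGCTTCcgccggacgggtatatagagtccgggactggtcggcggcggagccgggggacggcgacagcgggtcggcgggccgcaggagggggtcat
HSP90AA1, chr14:102086995-102087294, minus strand: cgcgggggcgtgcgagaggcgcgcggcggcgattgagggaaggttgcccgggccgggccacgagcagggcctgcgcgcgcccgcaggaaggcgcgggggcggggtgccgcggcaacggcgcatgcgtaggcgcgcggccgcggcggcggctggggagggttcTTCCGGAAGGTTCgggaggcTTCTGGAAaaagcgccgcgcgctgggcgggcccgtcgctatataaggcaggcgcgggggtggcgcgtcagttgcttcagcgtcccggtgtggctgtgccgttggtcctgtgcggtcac
HSP90AB1, chr6:44247693-44247992, plus strand: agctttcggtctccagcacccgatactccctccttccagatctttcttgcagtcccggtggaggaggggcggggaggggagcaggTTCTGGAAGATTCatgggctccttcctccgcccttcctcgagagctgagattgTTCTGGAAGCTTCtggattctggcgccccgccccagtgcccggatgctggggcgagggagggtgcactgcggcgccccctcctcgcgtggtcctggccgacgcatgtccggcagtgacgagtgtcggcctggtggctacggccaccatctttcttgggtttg
HSPD1, chr2:197499791-197500090, minus strand: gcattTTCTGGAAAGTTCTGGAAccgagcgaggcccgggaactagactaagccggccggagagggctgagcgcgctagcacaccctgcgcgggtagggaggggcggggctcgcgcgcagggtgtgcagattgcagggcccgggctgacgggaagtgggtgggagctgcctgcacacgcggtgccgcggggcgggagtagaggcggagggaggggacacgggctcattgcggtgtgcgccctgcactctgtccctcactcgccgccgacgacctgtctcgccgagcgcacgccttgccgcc

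DNAJA1 has a match of 3 units (GAANNTTCNNGAA, or TTCNNGAANNTTC as read on the other strand, which contains 2 overlapping matches of 2 units) from base 4 after its start. DNAJB1 has 2 separate matches of 2 units, 77 and 47 bases before this start. HSP90AA1 has a match of 3 units 88 bases before the start, HSP90AB1 has 2 at 165 and 112 bases, and HSPD1 has 2 that overlap at 245 and 240 bases. So a match of this kind lies beside genes that fell and beside HSP90AB1, which was not called. The HSPD1 matches lie between this HSPD1 start and that of HSPE1, which runs the other way and fell. They are just outside the HSPE1 window and cannot be assigned to HSPD1 alone. RefSeq entries were at hand for 56 of the 64 genes, with 75 promoters. A match of 3 units was in 6 of the 75 (8.0%), against 172 of 35116 promoters in all (0.49%), and a match of 2 units in 23 (30.7%), against 4737 (13.5%). Of the 8 genes called lower with P in either fit 7 had an entry, 3 of them (DNAJA1, DNAJB1 and HSPA9) with a match of 2 units. By gene, 22 of the 56 members with an entry had such a match. A match describes letters and is not a site of binding, and no match says only that these letters are not in the window.

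**Figure D1:**
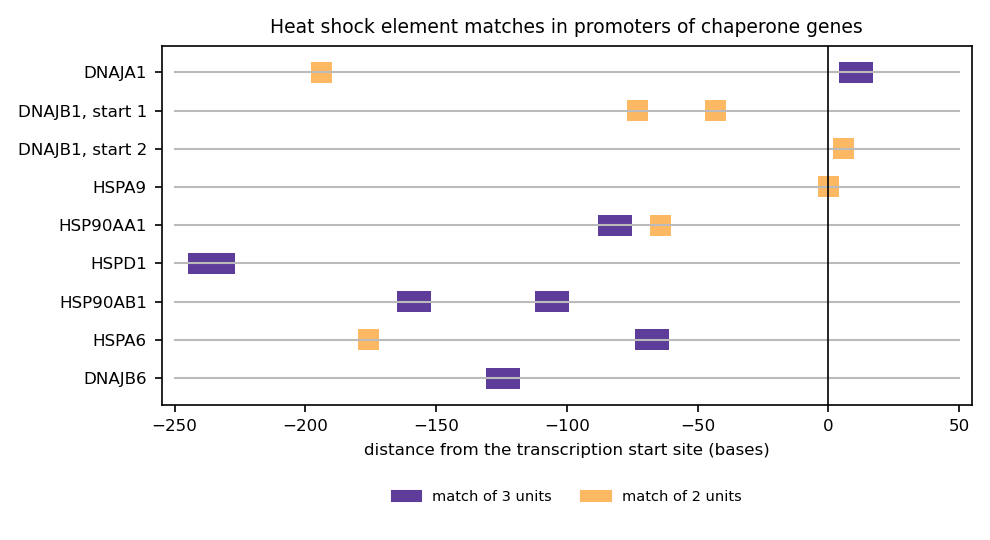
Matches to the heat shock element in promoters of 8 chaperone genes that hold one, a selection made with their values known, drawn by distance in bases from the transcription start site (vertical line at 0). Dark bars are matches of 3 units and light bars matches of 2 units only. The matches of 3 units start 245 and 240 bases before the start site in HSPD1 and 4 bases after it in DNAJA1.

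DNAJC9, a class C protein that pairs HSP70 with histones, fell in both probe sets. For 213088_s_at the P arrays read 6.12, 6.02 and 5.43, against 7.15 and 7.76 in untreated cells. The log2 fold change was −1.60 (SE 0.27, adjusted p = 0.00109). For 213092_x_at it was −1.86 (SE 0.34, adjusted p = 0.00144), with 5.25, 5.10 and 5.52 in P cells and 7.02 and 7.27 in untreated cells. No P array reached an untreated one in either probe set.

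HSPA14 is an HSP70 protein that sits with the DNAJ protein DNAJC2 at the ribosome exit and meets growing chains. It read 6.27, 6.41 and 6.86 with P, against 7.96 and 8.71 without drug, a fall of 1.82 on the log2 scale (SE 0.28, adjusted p = 0.000622). All 3 P arrays lay more than 1 log2 unit below the lower untreated array. Its partner DNAJC2 was not called, at −0.24 (95% interval −0.70 to 0.23). Of the 2 subunits of this complex 1 was therefore called, and the difference between them was not tested.

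Among the factors that release ADP from HSP70, HSPH1 and BAG5 fell. HSPH1, an HSP110 protein, read 8.51, 8.21 and 8.80 in P cells, against 9.57 and 9.52 in untreated cells, on 208744_x_at (log2 fold change −1.04, SE 0.23, adjusted p = 0.00504). Its other probe set 206976_s_at was lower by 0.86 (SE 0.22, adjusted p = 0.0110), short of the fold limit. BAG5 read 5.95, 6.17 and 6.98 with P, against 7.54 and 7.81 without drug, on 202985_s_at, a fall of 1.30 on the log2 scale (SE 0.29, adjusted p = 0.00507). The third P array stood nearer to untreated cells than the other 2 but did not overlap them. The second BAG5 probe set stayed below log2 4 on every array. Without array 2 of untreated cells the adjusted p for BAG5 was 0.0684, and without array 2 of P the fall of HSPH1 was 0.89, below the fold limit.

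HSPA4, an HSP110 protein like HSPH1, was below the untreated level in each of its 4 probe sets, at −0.28 to −0.75, with adjusted p of 0.0599 to 0.213 over both fits. BAG3, which links HSP70 to autophagy, was at −0.58 (adjusted p = 0.0716). Its P arrays read 6.76, 6.42 and 6.89, against 6.92 and 7.63 in untreated cells. HSPB1, the only small heat shock protein that passed the filter, was at −0.70 (adjusted p = 0.0945), with 7.42, 7.25 and 6.91 in P cells and 8.24 and 7.55 in untreated cells. None of these 3 genes was called.

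Of the 2 cytosolic HSP90 genes, HSP90AA1 was lower and HSP90AB1 was not called. All 4 probe sets of HSP90AA1, the stress-responsive form, were lower with P at an adjusted p of at most 0.05, by 0.56 to 0.74 on the log2 scale, below the fold limit. The probe set 211969_at read 10.70, 10.68 and 10.65 in P cells, against 11.46 and 11.37 in untreated cells (log2 fold change −0.74, SE 0.18, adjusted p = 0.00693). HSP90AB1, the constitutive form, read 11.16, 10.88 and 11.24 with P, against 11.00 and 10.78 without drug, on 200064_at. Its values were 0.21 (95% interval −0.19 to 0.60) and 0.22 (−0.28 to 0.72) for the 2 probe sets. The intervals of the 4 HSP90AA1 probe sets lay below 0 and reached at most −0.20, while those of HSP90AB1 included 0. Without array 2 of untreated cells the adjusted p for 214328_s_at was 0.194. The difference between the genes was not tested.

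Of the mitochondrial chaperonin the lid fell and the barrel was not called. HSPE1 read 9.56, 9.46 and 9.44 in P cells, against 10.49 and 10.80 in untreated cells, a fall of 1.16 on the log2 scale (SE 0.26, adjusted p = 0.00483). HSPD1, which makes up the barrel and is divergently paired with HSPE1 on chromosome 2, read 11.90, 11.81 and 12.01 with P, against 12.08 and 12.12 without drug, on 200807_s_at. Its 2 probe sets gave −0.19 (95% interval −0.42 to 0.05) and 0.00 (−0.28 to 0.28). Both intervals lie well inside a change of 1. Without array 2 of untreated cells the adjusted p for HSPE1 was 0.0715. The difference between HSPE1 and HSPD1 was not tested.

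HSPA9, the HSP70 of mitochondria, has 3 probe sets, which disagreed. On 200690_at it read 5.70, 5.10 and 5.96 in P cells, against 6.93 and 7.07 in untreated cells (log2 fold change −1.41, SE 0.25, adjusted p = 0.00130). The 2 brighter probe sets 200692_s_at and 200691_s_at gave 0.24 (95% interval −0.19 to 0.66) and 0.32 (−0.07 to 0.70), with 10.86, 10.36 and 10.89 in P cells and 10.51 and 10.43 in untreated cells on the first of them. The call for HSPA9 thus rests on its dimmest probe set, and where the 3 probe sets lie in the transcript was not tested. Its mitochondrial DNAJ partner DNAJA3 was not called, at 0.33 (adjusted p = 0.257).

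**Figure D2:**
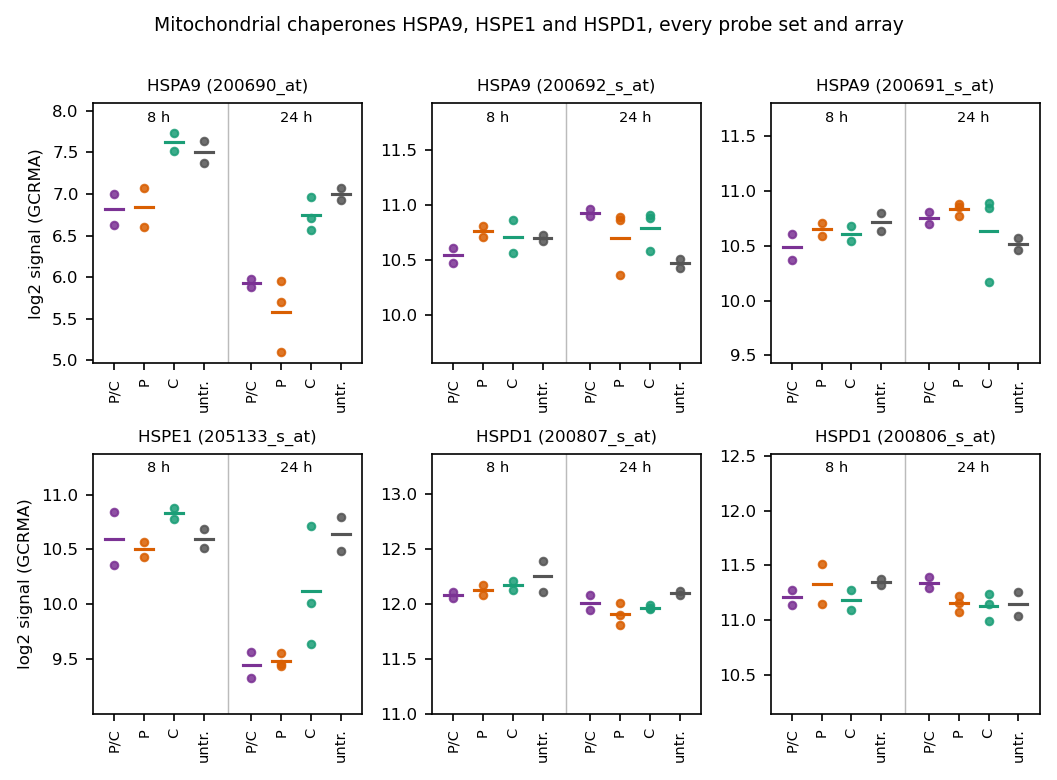
Log2 signal of HSPA9, HSPE1 and HSPD1 on every array, 1 panel for each probe set, with P/C, P, C and untreated cells from left to right at 8 h and at 24 h; points are arrays and bars group means. At 24 h HSPA9 is low with P/C and P on 200690_at only and HSPE1 is low with P/C and P, and HSPD1 stays within 10.99 and 12.39 throughout.

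CCT, the cytosolic chaperonin, had no called probe set among its 12, of which 5 passed the filter. Over the 3057 that passed 14.6% were called, and with 5 probe sets a count of 0 is near that share. The other CCT probe sets were read from the fit of all probe sets, where 2.67% were called lower. The 12 go by symbol and include CCT8L2. Of the 5 that passed the filter, CCT2 201947_s_at was lower by 0.50 at an adjusted p of 0.0405, and the others were at −0.47 to −0.51 with adjusted p of 0.0579 to 0.0891. CCT3, CCT4, CCT7 and the bright probe set of CCT8, which were too constant to pass, were at −0.22 to 0.03, and the 3 dim probe sets were at −0.11 to 0.57 with adjusted p of at least 0.344. HSF1 was dim, at 5.43, 5.29 and 5.48 in P cells and 5.25 and 5.17 in untreated cells (log2 fold change 0.19, adjusted p = 0.623). BAG6 was the only member higher at an adjusted p of at most 0.05 among those that passed, by 0.92 on 213318_s_at (adjusted p = 0.0369), short of the fold limit, and by 0.54 (adjusted p = 0.368) without array 2 of untreated cells.

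**Figure D3:**
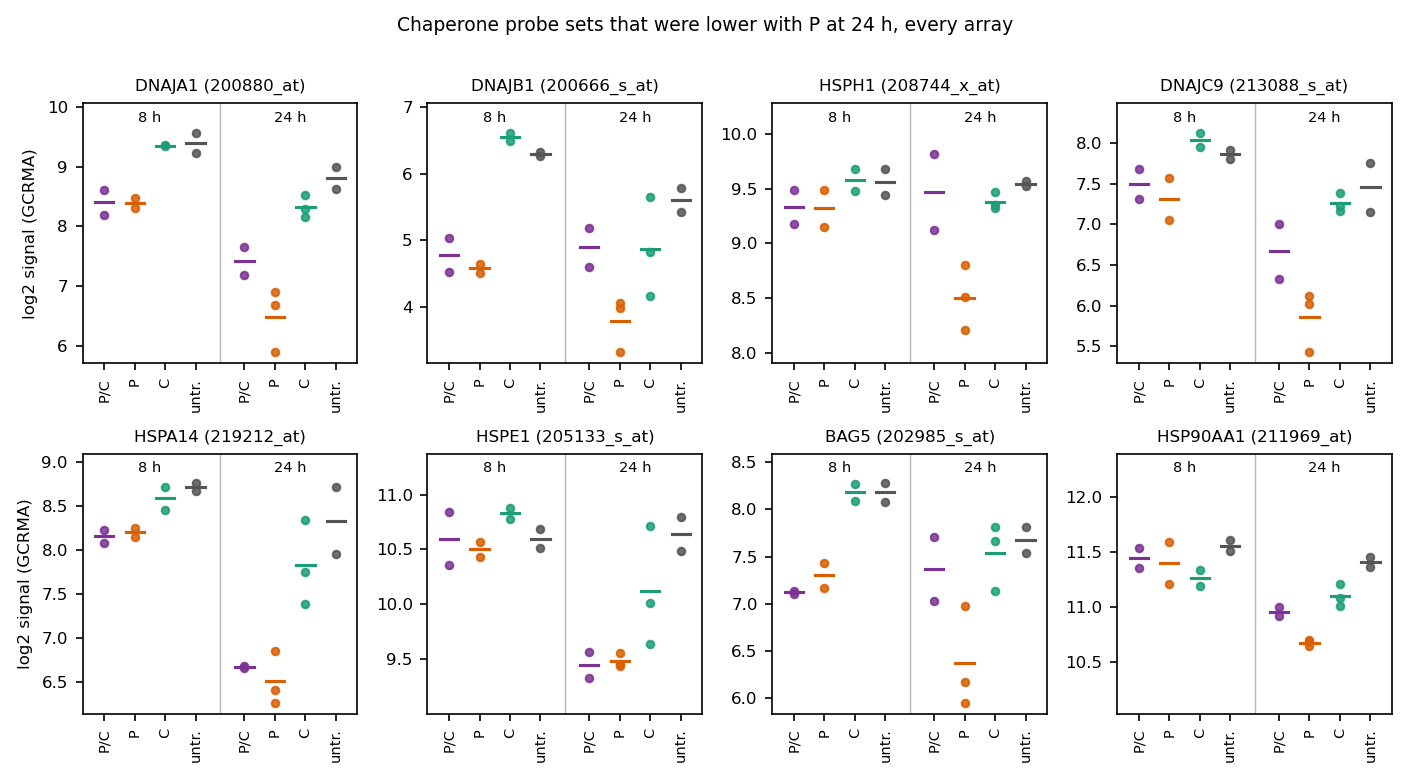
Log2 signal on every array for 8 chaperone probe sets that were lower with P at 24 h, 7 of them called and HSP90AA1 below the fold limit. Groups run P/C, P, C and untreated at 8 h and at 24 h, points are arrays and bars group means; the P arrays at 24 h lie below both untreated arrays in all 8 panels, and DNAJA1, DNAJB1 and BAG5 also lie lower in both piroxicam groups at 8 h.

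When both drugs were given for 24 h, 8 of the 41 members were called against untreated cells, 5 lower and 3 higher (19.5%). Over all 3057 probe sets 6.87% were called, 4.22% lower and 2.65% higher. In the fit of all probe sets 5 of the 103 members were called (4.85%), against 1.11% of a background with a smaller share past the filter. DNAJC9 213092_x_at (−1.88, adjusted p = 0.0116), HSPA14 (−1.66, adjusted p = 0.00906), DNAJA1 200880_at (−1.38, adjusted p = 0.0148), HSPE1 (−1.19, adjusted p = 0.0227) and HSPA9 200690_at (−1.07, adjusted p = 0.0286) fell. The comparison of P shares the untreated arrays, and its values for these probe sets were −1.86, −1.82, −2.31, −1.16 and −1.41. HSPA14 read 6.69 and 6.66 in P/C cells, against 7.96 and 8.71 in untreated cells. HSPE1 read 9.57 and 9.33 in P/C cells, against 10.49 and 10.80 in untreated cells. For both genes the P/C arrays lay in or just beside the range of the P arrays and below every untreated one. The other probe sets of DNAJC9 and DNAJA1 were at −0.78 (adjusted p = 0.0972) and −0.53 (adjusted p = 0.129), and HSPA9 again had its 2 brighter probe sets above 0. The P/C calls rest on few arrays: without array 2 of untreated cells none of the 41 was called, without array 3 of P/C only HSPA14 was, and in a fit of the P/C and untreated arrays at 24 h alone none was.

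The direct comparison of P/C with P asks how cells with both drugs differ from cells with piroxicam alone. Several probe sets that fell with P read higher in P/C cells. Whether cisplatin changes the response to piroxicam would also need the C and untreated groups and was not tested. HSPH1 208744_x_at read 9.81 and 9.12 in P/C cells, against 8.51, 8.21 and 8.80 in P cells. BAG5 read 7.71 and 7.03 in P/C cells, against 5.95, 6.17 and 6.98 in P cells. DNAJA1 200880_at read 7.65 and 7.18 in P/C cells, against 5.89, 6.68 and 6.89 in P cells. Every P/C array lay above every P array in these 3 probe sets. The log2 fold changes were 0.96 (SE 0.23, adjusted p = 0.0538), 1.00 (SE 0.29, adjusted p = 0.0840) and 0.93 (SE 0.27, adjusted p = 0.0829). DNAJA1 200881_s_at was at 0.73 (adjusted p = 0.0713) and DNAJC9 213088_s_at at 0.82 (adjusted p = 0.116). In the fit of all probe sets DNAJB1 was at 1.11 (adjusted p = 0.182) and 0.97 (adjusted p = 0.231). The rest of those called lower with P, HSPA9 200690_at, HSPA14, HSPE1 and DNAJC9 213092_x_at, were at −0.03 to 0.34. None passed, and none of the 41 members was called, against 0.164% of all (12 had an unadjusted p under 0.05, against 19.9%). Without array 3 of P/C 6 members were called higher than with P, DNAJA1, BAG5, HSPH1, BAG1, DNAJC8 and DNAJC9, so this comparison turns on which P/C array is used.

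HSPA4L and BAG6 were higher with P/C. HSPA4L, an HSP110 protein expressed strongly in testis, read 8.09 and 8.46 in P/C cells, against 6.43 and 6.84 in untreated cells, higher by 1.64 on the log2 scale (SE 0.39, adjusted p = 0.0218). BAG6, which holds membrane proteins in the cytosol until they are inserted or degraded, read 9.42 and 8.87 with P/C, against 8.17 and 7.41 without drug, on 213318_s_at (log2 fold change 1.36, SE 0.34, adjusted p = 0.0260). A second BAG6 probe set was called at 1.04 (adjusted p = 0.0416), and the third was at 0.72 (adjusted p = 0.128). With a single drug HSPA4L was at 0.85 (adjusted p = 0.0814) with P and 0.52 (adjusted p = 0.501) with C. DNAJB12, a DNAJ protein in the membrane of the endoplasmic reticulum, read 6.01 and 6.34 with P/C, against 5.01 and 4.60 without drug, on the dim probe set 202866_at (log2 fold change 1.37, adjusted p = 0.0304 in the fit of all probe sets), while its other 3 probe sets were at −0.26 to 0.29. With a single drug 202866_at was at 0.98 (adjusted p = 0.0295) with P, just short of the fold limit, and 0.62 (adjusted p = 0.519) with C. BAG6 213318_s_at was at 0.92 (adjusted p = 0.0369) with P and 1.03 (adjusted p = 0.234) with C. The P/C and untreated arrays did not overlap for HSPA4L, BAG6 and DNAJB12, the 3 genes named here. All 4 calls were lost without array 2 of untreated cells and without array 3 of P/C, those of HSPA4L and DNAJB12 also without array 1 of untreated cells, and those of BAG6 also without array 1 of P/C. Over all alternatives each BAG6 probe set lost the adjusted p in 8 of 12 (up to 0.255 and 0.324), HSPA4L in 6 of 11 (up to 0.130) and DNAJB12 in 5 of 10 (up to 0.285).

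**Figure D4:**
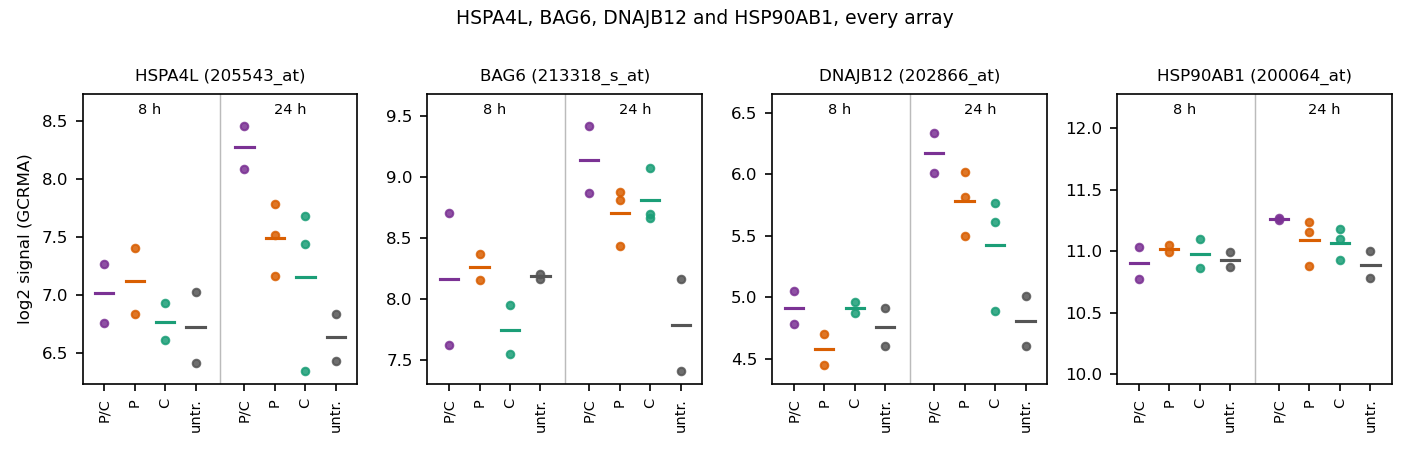
Log2 signal on every array for HSPA4L, BAG6 and DNAJB12, called higher with P/C at 24 h, and for HSP90AB1, not called in any comparison. Groups run P/C, P, C and untreated at 8 h and at 24 h, points are arrays and bars group means; the P/C arrays of the first 3 genes lie above both untreated arrays at 24 h.

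**Figure D5:**
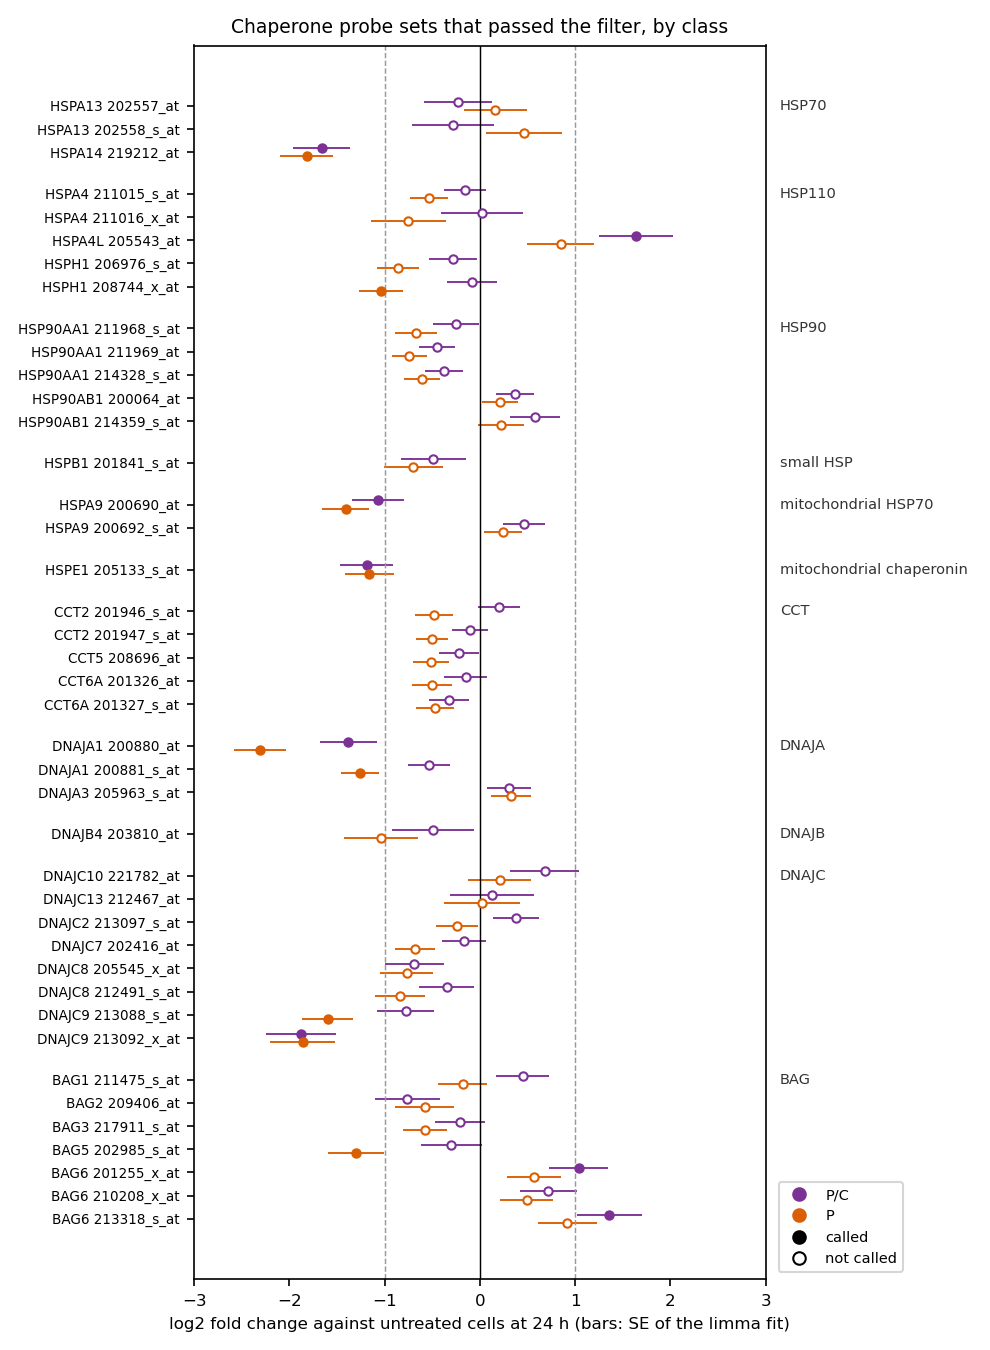
Log2 fold change against untreated cells at 24 h for the 41 chaperone probe sets that passed the filter, by class, with P/C above P for each. Bars are the SE of the limma fit, dashed lines mark a change of 1 and filled points are called; P has 9 filled points, all below 0, and P/C has 5 below and 3 above.

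No chaperone was called with cisplatin alone. At 24 h none of the 41 members was called against untreated cells, and none of the 3057 probe sets was (0.0%), while 5 of the 41 had an unadjusted p under 0.05 (13.8% of all). DNAJA1 200880_at read 8.29, 8.52 and 8.16 with C, against 8.62 and 8.99 in untreated cells (log2 fold change −0.48, adjusted p = 0.423). BAG6 213318_s_at was at 1.03 (SE 0.31, adjusted p = 0.234). At 8 h none was called either, and none had an unadjusted p under 0.05 (0.0% and 1.14% of all). In the comparison of P/C with C at 24 h none of the 41 was called (0.0981% of all), and 8 had an unadjusted p under 0.05 (14.8% of all), with HSPA14 at −1.15 (SE 0.28, adjusted p = 0.124). Without array 1 of P/C DNAJC9 213092_x_at and DNAJC10, a DNAJ protein of the endoplasmic reticulum, were called in that comparison, lower and higher. Without array 1 of C BAG2 was called lower with C at 24 h.

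At 8 h DNAJB1 was lower on the 4 arrays with piroxicam than on the 4 without it, and DNAJA1 was lower by less than the fold limit. DNAJB1 200666_s_at read 5.03 and 4.53 with P/C, 4.65 and 4.51 with P, 6.49 and 6.62 with C and 6.32 and 6.27 without drug. DNAJA1 200880_at read 8.19 and 8.61 with P/C, 8.31 and 8.47 with P, 9.36 and 9.34 with C and 9.22 and 9.57 without drug. For both probe sets all 4 arrays with piroxicam lay below all 4 without it.

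Against untreated cells alone none of the 41 members was called with P (0.491% of all) or with P/C (0.622%) at 8 h, and 7 of the 41 had an unadjusted p under 0.05 in each (9.58% and 11.8% of all). In the comparison of the 4 arrays with piroxicam with the 4 without it, DNAJB1 was called in the fit of all probe sets, at −1.74 (SE 0.27, adjusted p = 0.00860) and −1.37 (SE 0.26, adjusted p = 0.0216). These were 2 of 103 members (1.94%), against 0.437% called lower over all, a background with a smaller share past the filter. In the filtered fit none of the 41 was called (1.9% of all). At an adjusted p of at most 0.05 were DNAJA1 200880_at (−0.98, adjusted p = 0.0150) and 200881_s_at (−0.77, adjusted p = 0.0111), BAG5 (−0.97, adjusted p = 0.0232), BAG3 (−0.76, adjusted p = 0.0253) and HSPA9 200690_at (−0.74, adjusted p = 0.0391), 5 of 41 against 3.7% lower over all. Over the alternatives the adjusted p reached 0.0485 for DNAJB1 200666_s_at and 0.0500 for DNAJA1 200881_s_at. The others lost the adjusted p in part of the alternatives, HSPA9 in 10 of 15 (up to 0.170, without array 3 of P), BAG3 in 8 of 15, BAG5 in 8 of 16, DNAJB1 200664_s_at in 6 of 14 and DNAJA1 200880_at in 5 of 16, most of them with 1 array left out. An unadjusted p under 0.05 was found for 12 of the 41 and for 19.3% of all.

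BAG3 is induced by HSF1 like DNAJB1, and it read 7.25 and 7.11 with P/C, 7.13 and 7.25 with P, 8.24 and 7.68 with C and 7.87 and 8.00 in untreated cells at 8 h. The piroxicam arrays lay below the others without overlap. At 24 h its P/C arrays read 7.07 and 7.05, between the untreated arrays at 6.92 and 7.63. HSPE1 and HSPA14, both lower with P at 24 h, were at −0.17 (adjusted p = 0.710) and −0.48 (adjusted p = 0.239) at 8 h. DNAJC9 was at −0.55 and −0.74 (adjusted p = 0.158 and 0.118).

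The change of the P effect between the times was tested as the difference of P against untreated cells at 24 h and at 8 h. None of the 41 members passed (0.196% of all), and 9 had an unadjusted p under 0.05 (12.7% of all). The values were −1.31 for DNAJA1 200880_at (SE 0.41, adjusted p = 0.224), −1.30 for HSPA14 (SE 0.41, adjusted p = 0.228), −1.06 for HSPE1 (SE 0.39, adjusted p = 0.259) and −0.10 for DNAJB1 200666_s_at (SE 0.52, adjusted p = 0.984). A later effect on the first 3 was therefore not shown by these arrays. Untreated cells at 24 h and at 8 h did not differ in any member by the call (0.0981% of all), and 2 of the 41 had an unadjusted p under 0.05 (5.56% of all).

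Partners of the chaperones outside the rule were read from lists. Of the co-chaperones and HSP90 partners 12 probe sets of 9 genes passed the filter, and 2 of the 12 fell with P at 24 h and none rose, a share near the 11.4% called lower over all probe sets. CHORDC1, an HSP90 partner that itself responds to heat, read 6.35, 6.04 and 5.94 in P cells, against 7.96 and 8.08 in untreated cells (log2 fold change −1.91, adjusted p = 0.00166). STIP1, which bridges HSP70 and HSP90, was called on 212009_s_at at −1.54 (adjusted p = 0.0306) and was at −0.82 (adjusted p = 0.0318) on its brighter probe set. With P/C the same genes were at −0.35 and −0.42 and were not called. ST13, which holds the ADP state of HSP70, was lower on 208667_s_at with P/C (−0.83, adjusted p = 0.0270) and P (−0.66, adjusted p = 0.0194), while its brighter probe set was at 0.14 and −0.11. CDC37, FKBP4, PPID and PTGES3, further HSP90 partners, were at −0.46 to 0.09 with P with adjusted p of at least 0.0678.

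No probe set was called with P, P/C or C at 24 h among 5 that passed for prefoldin, which brings actin and tubulin to CCT, 6 for mitochondrial import and protein quality control and 1 for the endoplasmic reticulum chaperones left out by the rule. GRPEL1, which releases ADP from HSPA9, was lower by 0.71 (adjusted p = 0.0235) and 0.91 (adjusted p = 0.0115) with P on its 2 probe sets, short of the fold limit. VBP1, a subunit of prefoldin, was lower by 0.77 (adjusted p = 0.00693). HMOX1, a gene of oxidative stress that is also a target of heat shock factors, rose with P. It failed the filter and read 6.20, 4.68 and 5.76 in P cells, against 2.87 and 2.48 in untreated cells, a log2 fold change of 2.87 (adjusted p = 0.00996 in the fit of all probe sets). In P/C cells it read 2.47 and 5.12, 1 array with the signal and 1 without.

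The ratio of 3′ to 5′ signal, a measure of RNA integrity, had overlapping ranges in these groups at 24 h. For ACTB the log2 difference was 0.80 to 1.06 with P, 0.85 to 0.94 with P/C, 0.84 to 1.08 with C and 0.81 to 1.45 in untreated cells. The GAPDH difference was 0.17 to 0.38 with P, 0.18 to 0.29 with P/C, 0.19 to 0.30 with C and 0.13 to 0.44 in untreated cells. Both highest values at 24 h, 1.45 and 0.44, belonged to array 2 of untreated cells. Leaving out this array lost several calls, as given above, and the part of RNA integrity in that was not tested. At 8 h the ACTB difference was 0.93 to 1.60 with P, 1.27 to 1.37 with P/C, 1.19 to 1.74 with C and 0.81 to 1.88 in untreated cells. The GAPDH difference at 8 h was 0.07 to 0.68 over these groups.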

How the data were processed

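RNA of MSTO-211H cells was hybridised to HGU133A arrays, and 18 arrays in 8 groups were used. The deposited values are log2 signals per probe set that the authors made from the raw intensities with GCRMA, which corrects background by probe sequence and normalizes between arrays; per the study's methods, arrays with outlying raw intensities had been removed. GCRMA gives weak probe sets nearly constant low values, so changes of dim transcripts are uncertain. The table used here holds no column of the authors' own comparisons, and their supplementary list of differentially expressed probe sets was not used.

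Genes were named by the GEO platform annotation, from probe sets with 1 symbol. Members, lists and tests were chosen with earlier results of these data known, and the lists and settings taken over from that work are not independent evidence. The filter was recomputed from the deposited values and the call rule is that given in the text, after removal of 68 control probe sets. limma 3.58.1 in R 4.3.3 fitted 1 mean per group over all 18 arrays, with moderated tests and Benjamini-Hochberg adjustment over all probe sets of each comparison (10 residual and 5.76 prior degrees of freedom). The procedure was tested on simulated data. Values are named for every called member and for HSPA4, HSPA9, HSPH1, HSP90AA1, HSP90AB1, HSPD1, HSPE1, HSPB1, DNAJA1, DNAJB1, BAG3 and HSF1; other members were named after their values were seen. For 1 probe set per gene, that with the highest mean over all arrays was taken.

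Replicates are described as biological, and p-values measure only the spread between these samples. The same replicate numbers recur among groups. At 8 h samples with the same number deviated together in all pairs (r of 0.203 to 0.66), so the numbers were taken to pair these arrays; with 2 arrays a group the deviations mirror each other, and the 12 pairs hold 6 distinct values. At 24 h r was −0.223 to 0.393, and over 0.1 in 5 of 12 pairs, so they were not. The values given for 8 h come from the fit without this pairing, which entered only as an alternative. Alternatives were no filter, a signal of 200, quantile normalization or median centring, array weights, a fit of the compared arrays alone, replicate blocks, leaving out arrays, no fold limit and 1 probe set per gene. Arrays give no counts, and the number of arrays limits the precision. Promoters were read from RefSeq, leaving out chromosome 8.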

Additional observations from a re-analysis of the deposited data

Results flagged for a closer look

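The probe set 211968_s_at of HSP90AA1, the stress-responsive cytosolic HSP90, had its P arrays on opposite sides of the untreated arrays at the 2 times. At 24 h the P arrays read 10.69, 10.61 and 10.93, against 11.44 and 11.39 in untreated cells. At 8 h they read 11.50 and 11.72, against 11.28 and 11.30 in untreated cells. The log2 fold changes at 8 h were 0.31 with P/C, 0.32 with P and 0.51 with C, none called, so the higher side was not particular to P. The difference of the P effect between 24 h and 8 h was −0.99 on the log2 scale (SE 0.33, adjusted p = 0.235, limma) and did not pass the test. The other HSP90AA1 probe sets gave −0.46 to −0.58 for the same difference, with adjusted p of 0.376 to 0.510.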

How the results depend on the processing

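The count of 9 members called with P against untreated cells at 24 h became 5 with 1 probe set per gene and 17 with no fold limit, and was 7 to 11 when arrays were left out in turn. The count of 8 for P/C against untreated cells at 24 h was 2 with array weights, 5 with no filter, 5 with a signal of at least 200, 5 with the replicate block over all arrays, 4 with 1 probe set per gene and 0 in a fit of the compared arrays alone. Leaving out arrays in turn gave 0 to 9, the lowest without array 2 of untreated cells. The counts of 0 became 2 with array weights for C against untreated cells at 24 h (0 to 1 when arrays were left out), 0 to 6 for P/C against P and 0 to 2 for P/C against C. Without the arrays labelled P/C 24 h 1 and C 24 h 1 together they were 1 for C against untreated cells and 2 for P/C against C. The count for piroxicam at 8 h became 1 with median centring, 2 with no filter, 5 with no fold limit and 0 to 1 when arrays were left out. The other counts stayed at 0 to 0 when arrays were left out. The cause was not tested, except that fewer probe sets or arrays were tested where the setting says so.

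With the replicate block over all arrays 10 members were called with P at 24 h, and the block for the paired 8 h arrays alone changed no count of 0. Of 381 alternatives for 31 named results with an adjusted p of at most 0.05, 279 kept it, 102 lost it and 0 changed direction. It was kept in every alternative by 9 results, among them DNAJA1, DNAJC9 and HSPA14 with P at 24 h. Without array 2 of untreated cells HSPE1 and BAG5 lost it with P (adjusted p = 0.0715 and 0.0684). Signal near background limits DNAJB1, HSF1 and DNAJB12.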
